A study of Mus musculus with 52 samples.

Results

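The expression of 10 genes that serve as readouts of the transcriptional regulators YAP and SRF was followed in Cilia-APEX-IMCD3 cells, a line derived from the mouse inner medullary collecting duct. The members were chosen by name, with earlier results of these data known, and all 10 were found among the 24421 gene symbols counted. *Ctgf*, *Cyr61*, *Ankrd1* and *Amotl2* were taken as YAP targets, and *Srf* itself with *Vcl*, *Tagln*, *Acta2*, *Cnn1* and *Myl9* as SRF targets. In control clones, *Cyr61* was lower in the serum-starved, ciliated state than in the non-ciliated state by a factor of 4.47, with no overlap, and was called in all 20 alternative settings. *Tagln* was also called lower, but its groups overlapped and the call was lost in 9 of 20 settings. Over all genes tested, 9.46% were called lower in ciliated controls, and 11.4% lay lower without overlap. No member passed the test between mutant and control clones in either state, and neither did any other of the 13994 genes tested. With few mutant clones in each state, these tests do not show that an effect is absent. For *Ctgf*, the log2 fold change in mutants was -0.85 (SE 1.05) in ciliated and -0.15 (SE 1.17) in non-ciliated cells. The study's own analysis reported genes that differed between mutants and controls in both states. The widest spread of any YAP target was found among control clones of the same state, where *Ctgf* ran from 13.9 to 1617 CPM (counts scaled to library size).

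The 52 RNA-seq libraries came from 13 clones with 4 technical replicate libraries each. Non-ciliated cells were represented by control clones AB, 1, 2 and 3 and by 1 homozygous mutant clone each of *Wdr34* and *Wdr60*, which encode the intermediate chains of the dynein-2 motor of cilia. Ciliated cells were represented by control clones D8, H12, A4 and G7 and by the homozygous mutant clones Wdr34-1, Wdr34-3 and Wdr60. All clones are labelled as treated by CRISPR base editing. Per the study's methods, the mutants received a guide for a missense change and the controls the base editor with an empty guide vector, and control AB is named differently in the labels from the other non-ciliated controls. Each line was grown from 1 cell, so that a difference between clones holds both the genotype and whatever else distinguishes those clones. The labels name the same serum-containing medium for every clone and give no allele, while the study's methods describe serum starvation for the ciliated state. The study describes a different missense allele for each of its *Wdr34* mutants, 1 of them with an unintended further heterozygous change. Wdr34-1 and Wdr34-3 are therefore not replicates of 1 allele, and the labels do not say which carries which. According to the study's text, sequencing of the non-ciliated cells had ended before a *Wdr34* mutant of the ciliated set existed, so that state and time of sequencing cannot be told apart. The methods count fewer distinct lines than there are sets here, and 1 mutant is said to be missing from the non-ciliated set, so the Wdr60 line and a Wdr34 line probably stand in both states. The methods count 4 control clones and each state holds 4 control sets, so control lines may also stand in both states. The labels link no control of 1 state to a control of the other. A clone below means a line in 1 state. Every fit and permutation test treats all clones as separate, also the test of whether the mutant effect differs between states.

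YAP and its relative TAZ (encoded by *Wwtr1*) are coactivators that enter the nucleus when the kinases of the Hippo pathway are inactive, bind the TEAD factors on DNA and switch on genes of the matrix, the cytoskeleton and growth. Serum, a stiff substrate and a spread cell shape are known to favour their nuclear form, and confluence to oppose it. SRF is a DNA-binding factor that works with either of 2 families of partners: the MRTF coactivators, which are released when actin polymerizes and drive genes of the contractile cytoskeleton, and the ternary complex factors, which drive immediate early genes after serum stimulation. The regulators overlap, since actin dynamics feed into both.

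The sites through which these regulators act were looked up first, in the promoter sequences of RefSeq (GRCm38.p6, 250 bases before to 50 after each start). Promoters of 8 members were matched. The TEAD site was searched as CATTCC or its reverse complement GGAATG and the SRF site as the CArG box, each on both strands. The TEAD letters were present in the windows of 5 of the 8 members, against 14.7% of 32817 mouse promoters, and the CArG box in those of 3 of the 8, against 1.63%. *Vcl* held both and *Cnn1* held neither. The stretches that hold the matches are shown here because they hold the letters that TEAD factors and SRF are known to recognise. They are written 5′ to 3′ on the strand of the gene, with the matched letters in capitals:
Cyr61, chr3:145650071-145650100, minus strand: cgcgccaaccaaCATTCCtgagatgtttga
Ankrd1, chr19:36120037-36120066, minus strand: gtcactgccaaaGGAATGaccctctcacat
Ankrd1, chr19:36119950-36119979, minus strand: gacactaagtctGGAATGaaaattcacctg
Amotl2, chr9:102717727-102717756, plus strand: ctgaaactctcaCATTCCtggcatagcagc
Acta2, chr19:34255502-34255531, minus strand: gagcagaacagaGGAATGcagtggaagaga
Vcl, chr14:20929243-20929272, plus strand: gcccctcccttgGGAATGggggcggggcgg
Vcl, chr14:20929161-20929190, plus strand: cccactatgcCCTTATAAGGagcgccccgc
Myl9, chr2:156775293-156775322, plus strand: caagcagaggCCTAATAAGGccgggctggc
Srf, chr17:46556215-46556244, minus strand: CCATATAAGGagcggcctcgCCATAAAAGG
*Srf* carried 2 CArG boxes within 30 bases, the first of them starting 82 bases before the transcription start, and *Ankrd1* carried 2 TEAD matches, starting 210 and 123 bases before it. The stretches of *Amotl2*, *Acta2* and *Srf* lie upstream of the start used in the promoter table but inside the span that RefSeq gives for the whole gene. A match is a description of the letters and was not tested as a binding site.

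Depth was similar across the series. Library totals ran from 14816218 to 28084979 counts with a median of 17414011, and the 4 libraries of a clone summed to 64841603 to 77304019. In 5 libraries, the log2 values spread around the median of their own clone with an SD of 0.32 to 0.50, against 0.067 to 0.27 in the other 47: library 1 of the non-ciliated clones AB and Wdr60, library 2 of the ciliated clone Wdr60, library 1 of A4 and library 4 of G7. Of 16 markers of kidney and collecting duct epithelium, the transcription factors *Pax2* and *Pax8* and the homeobox gene *Hoxb7* were present in every clone, while *Aqp2*, the water channel that defines the principal cell, lay at 0 to 0.02 CPM. The adhesion genes and keratins of the list set apart 2 control clones. *Cdh1* (E-cadherin) stood at 14.7 CPM in the ciliated clone G7 and 4.27 in the non-ciliated clone 2, against 609 to 649 in the other ciliated controls and 251 to 391 in the other non-ciliated controls. *Pax2*, *Pax8* and *Hoxb7* went the other way: G7 and clone 2 were the highest controls of their states for each. *Pax2* stood at 315 CPM in G7 and 280 in clone 2, against 79.6 to 134 and 116 to 180 in the other controls. *Pax8* stood at 427 and 303 CPM, and *Hoxb7* at 84.9 and 55.9. The 16 markers summed to 990 CPM in G7 and 861 in clone 2, against 3731 to 6617 and 3780 to 4936 in the other controls of each state, and to 1629 in the ciliated mutant Wdr34-3. Each state comparison was therefore also computed without G7 and clone 2. The 6 smooth muscle markers summed to 0.12 to 1.13 CPM in every clone, with *Myocd*, the muscle-specific partner of SRF, at 0.02 or less. Fibroblast markers summed to 1.38 to 5.73 CPM in 12 clones and to 31.6 in Wdr34-3, where *Dcn* (decorin) alone stood at 29.1 CPM. The 3 leukocyte markers summed to 25.2 to 54.2 CPM in non-ciliated and 171 to 303 in ciliated controls. Of these, 1 was called between the states, *Csf1r*, the receptor of a macrophage growth factor (36.1 against 229 CPM, log2 fold change 2.65, adjusted p = 0.0012), while *Ptprc*, the pan-leukocyte marker CD45, stood at 0.45 and 0.16 CPM and the macrophage marker *Cd68* at 3.48 and 2.27. The part of this difference in the results was not tested.

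*Cyr61* (chr3:145646971-145649985, also named *Ccn1*) encodes a secreted matricellular protein that is among the earliest YAP and serum response genes. The non-ciliated controls stood at 840 CPM in clone AB, 1331 in clone 1, 1260 in clone 2 and 702 in clone 3. The ciliated controls stood at 332 in D8, 233 in H12, 263 in A4 and 99.4 in G7. Every ciliated control therefore lay below every non-ciliated control. The group means were 232 ± 97.6 and 1033 ± 309 CPM (SD, n = 4 clones each), and the fitted log2 fold change was -2.16 (SE 0.41, adjusted p = 0.00652). The exact 2-sided permutation test over clones gave p = 0.0286, the smallest that 4 against 4 clones allow. Across its 20 alternative settings, leave-outs included, *Cyr61* was called every time. Without G7 and clone 2, its log2 fold change was -1.81 (SE 0.39, adjusted p = 0.0118). The mutant clones, which this contrast did not use, showed the same order: 1701 and 589 CPM in the non-ciliated clones Wdr34 and Wdr60, and 293, 187 and 220 in the ciliated clones Wdr34-1, Wdr34-3 and Wdr60. *Cyr61* was the only member in which all 7 ciliated clones lay below all 6 non-ciliated clones, a pattern found in 8.15% of all genes tested.

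*Ctgf* (chr10:24595442-24598683, also named *Ccn2*) encodes connective tissue growth factor, the sister protein of *Cyr61* and the most widely used YAP readout. The ciliated controls stood at 1617 CPM in D8, 200 in H12, 696 in A4 and 13.9 in G7. The non-ciliated controls stood at 501 in AB, 1216 in clone 1, 427 in clone 2 and 1268 in clone 3. The highest and the lowest of all 13 clones were thus both ciliated controls, 116-fold apart. G7, which was also low in adhesion genes and keratins, was low in each of its 4 libraries, at 12.1 to 16.9 CPM. On the log2 scale, the SD over clones was 2.98 in the ciliated controls and 0.83 in the non-ciliated controls, while the median SD over the libraries of a clone was 0.11. The state difference was small beside that spread, with a log2 fold change of -0.44 (SE 0.95, adjusted p = 0.782, exact permutation p = 0.371). It was -1.50 without D8, -0.043 without G7, and -0.27 without G7 and clone 2 (SE 0.70, adjusted p = 0.813). The mutant clones stood at 1046 (Wdr34) and 486 (Wdr60) CPM in non-ciliated cells and at 293 (Wdr34-1), 171 (Wdr34-3) and 590 (Wdr60) in ciliated cells, inside the range of the controls of their state.

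*Ankrd1* (chr19:36111965-36119844) encodes an ankyrin repeat protein of muscle and nucleus that YAP and TEAD induce in many cell types. The non-ciliated controls stood at 446 CPM in AB, 940 in clone 1, 467 in clone 2 and 1084 in clone 3, and the ciliated controls at 768 in D8, 96.7 in H12, 234 in A4 and 117 in G7. D8 lay within the range of the non-ciliated controls and the other 3 below it. The log2 fold change was -1.28 (SE 0.65, adjusted p = 0.189). Without D8 it was -2.32 (SE 0.53) and passed the test (adjusted p = 0.0167), while it did not pass without any other single clone, with values down to -0.99 without H12 (adjusted p = 0.331). The mutants stood at 762 (Wdr34) and 292 (Wdr60) in non-ciliated cells and at 86.1 (Wdr34-1), 223 (Wdr34-3) and 153 (Wdr60) in ciliated cells. In A4, the clone mean hides a spread over libraries from 339 to 944 CPM for *Ctgf*, the lowest being library 1, which stands apart for all genes, and *Ankrd1* ran from 111 to 342 CPM over the same 4 libraries.

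*Amotl2* (chr9:102717091-102733418) encodes a scaffold of the angiomotin family that is induced by YAP and in turn holds YAP at cell junctions. The non-ciliated controls stood at 380 CPM in AB, 625 in clone 1, 639 in clone 2 and 383 in clone 3, and the ciliated controls at 226 in D8, 337 in H12, 196 in A4 and 431 in G7. G7, the lowest clone for *Ctgf* and *Cyr61*, was the highest ciliated clone for *Amotl2*. The log2 fold change was -0.79 (SE 0.29, adjusted p = 0.0743). It was -1.02 without G7 and then passed the test (adjusted p = 0.0355), but not without G7 and clone 2 (-0.90, adjusted p = 0.0557) or without any other single clone (adjusted p up to 0.196, without clone 1). The mutants stood at 533 and 335 CPM in the non-ciliated clones Wdr34 and Wdr60, and at 261, 409 and 294 in the ciliated clones Wdr34-1, Wdr34-3 and Wdr60.

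**Figure D1:**
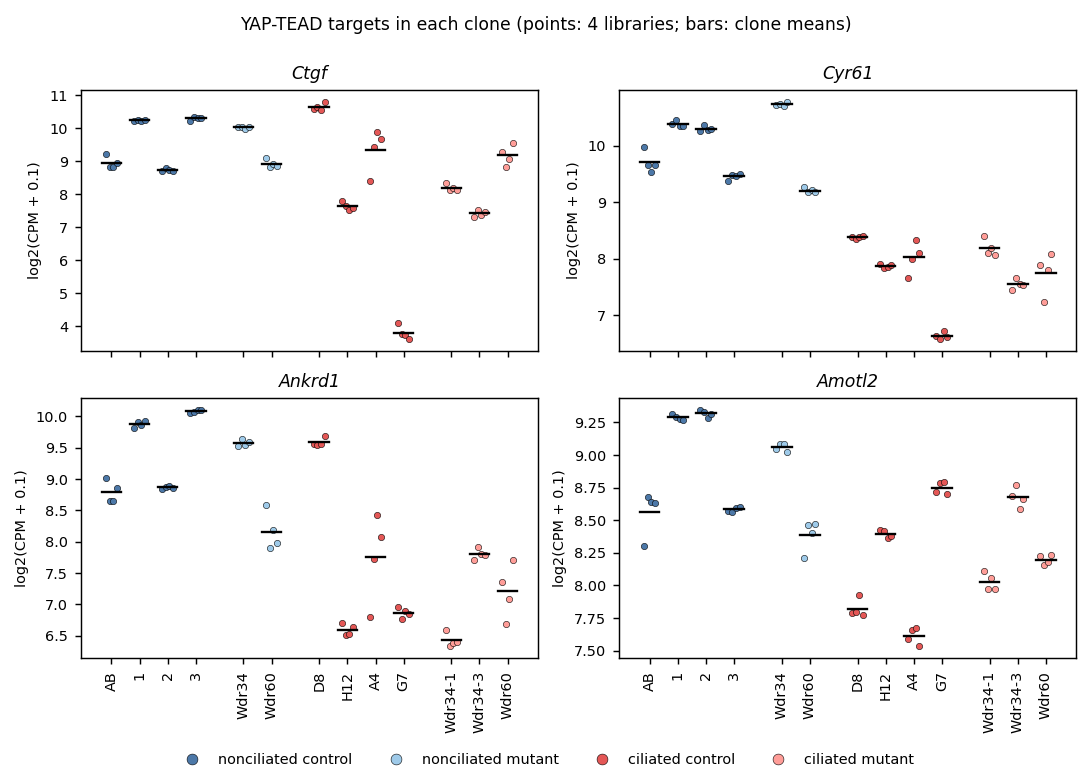
Level of the 4 YAP targets in each of the 13 clones, as log2(CPM + 0.1) on the vertical axis, with the clones on the horizontal axis grouped and coloured by state and genotype. Points are the 4 technical replicate libraries and bars are clone means of the log2 values: *Cyr61* separates the states with no overlap, while *Ctgf* spans 13.9 to 1617 CPM among the ciliated controls alone.

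*Srf* (chr17:46546838-46558267) varied least of all members, with 1.73-fold between its highest and lowest clone. It stood at 71.2 CPM in AB, 104 in clone 1, 120 in clone 2 and 74.4 in clone 3, and at 70.2 in D8, 74.2 in H12, 76.7 in A4 and 81.7 in G7. The ciliated controls lay close together, near the lower pair of non-ciliated controls (AB and 3) and below the higher pair. The log2 fold change was -0.28 (SE 0.20, adjusted p = 0.342). In the mutants, *Srf* stood at 116 (Wdr34) and 69.5 (Wdr60) in non-ciliated cells and at 92.1 (Wdr34-1), 84.7 (Wdr34-3) and 69.6 (Wdr60) in ciliated cells. The non-ciliated Wdr60 value rests in part on library 1, which stood at 43.4 CPM against 76.7 to 79.4 in its other 3 libraries.

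*Vcl* (chr14:20929383-21033676) encodes vinculin, which couples integrins at focal adhesions to actin. It stood at 232 CPM in AB, 376 in clone 1, 263 in clone 2 and 263 in clone 3, and at 197 in D8, 222 in H12, 241 in A4 and 188 in G7. Only A4 reached into the non-ciliated range, whose lower end, AB, includes a library that stands apart (library 1, at 167 CPM against 239 to 263 in the other 3). The log2 fold change was -0.45 (SE 0.19, adjusted p = 0.123, exact permutation p = 0.0571). The mutants stood at 256 (Wdr34) and 160 (Wdr60) CPM in non-ciliated cells, the latter the lowest of all 13 clones, and at 236 (Wdr34-1), 182 (Wdr34-3) and 228 (Wdr60) in ciliated cells.

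*Tagln* (chr9:45929628-45936058) encodes transgelin, an actin-binding protein of smooth muscle that rises with MRTF activity in other cells. The non-ciliated controls stood at 1.92 CPM in AB, 7.27 in clone 1, 5.48 in clone 2 and 11.8 in clone 3. The ciliated controls stood at 2.39 in D8, 1.19 in H12, 1.24 in A4 and 1.30 in G7. D8 lay just above AB, so that the groups overlapped by that 1 pair. The group means were 1.53 ± 0.57 and 6.61 ± 4.09 CPM, and the log2 fold change was -2.13 (SE 0.65, adjusted p = 0.0433). This call was lost in 9 of 20 alternative settings, with adjusted p up to 0.121, among them leaving out G7 together with clone 2 (log2 fold change -2.14, adjusted p = 0.0842). The exact permutation p was 0.0571. The mutants stood at 4.82 (Wdr34) and 0.56 (Wdr60) CPM in non-ciliated cells, the latter the lowest of all 13 clones, and at 1.37 (Wdr34-1), 1.67 (Wdr34-3) and 1.0 (Wdr60) in ciliated cells.

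*Acta2*, *Cnn1* and *Myl9* were close to the limit of detection, so their clones are given as reads summed over 4 libraries. *Acta2* (chr19:34240336-34255585), which encodes smooth muscle alpha-actin, had 29 reads in AB, 258 in clone 1, 33 in clone 2 and 55 in clone 3, against 19 in D8, 0 in H12, 1 in A4 and 0 in G7. All ciliated controls lay below all non-ciliated controls in CPM (0.08 ± 0.14 against 1.36 ± 1.67, SD, n = 4 clones each). The log2 fold change of -4.12 (SE 1.58, adjusted p = 0.0889) did not pass the test. It was -2.75 without clone 1, which holds most of the reads. Without D8 the ciliated controls held 1 read in all, so no fold is given for that setting, in which the gene was called (adjusted p = 0.0187). A count of 0 in a clone allows up to 3 reads, and these limits cover counting error only. In the mutants, *Acta2* had 18 and 1 reads in the non-ciliated clones Wdr34 and Wdr60 and 0, 9 and 1 reads in the ciliated clones Wdr34-1, Wdr34-3 and Wdr60. Actin genes are near-identical in their coding parts, and the way reads that map to several genes were counted is not given in the sources used here, so the *Acta2* counts are uncertain. *Gapdh*, a strongly expressed gene with many near-copies in the genome, was listed at only 11.9 to 55.8 CPM over the clones.

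*Cnn1* (chr9:22099221-22109221), which encodes the actin-binding protein calponin, had 6 reads in AB, 39 in clone 1, 80 in clone 2 and 64 in clone 3, against 39 in D8, 14 in H12, 8 in A4 and 3 in G7. The ciliated controls with the exception of D8 held fewer reads than clones 1, 2 and 3. The log2 fold change was -1.46 (SE 0.93, adjusted p = 0.29), and -0.75 without G7 and clone 2. The mutants had 14 (Wdr34) and 2 (Wdr60) reads in non-ciliated cells and 7 (Wdr34-1), 21 (Wdr34-3) and 7 (Wdr60) in ciliated cells. *Myl9* (chr2:156775408-156781657), which encodes the regulatory light chain of myosin, had 3 reads in AB, 4 in clone 1, 20 in clone 2 and 2 in clone 3, and 3 in D8, 32 in H12, 0 in A4 and 2 in G7. The mutants had 1 (Wdr34) and 0 (Wdr60) reads in non-ciliated cells and 3 (Wdr34-1), 6 (Wdr34-3) and 7 (Wdr60) in ciliated cells. *Myl9* thus gave no more than scattered reads outside clones 2 and H12, and 31 of 52 libraries had none.

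**Figure D2:**
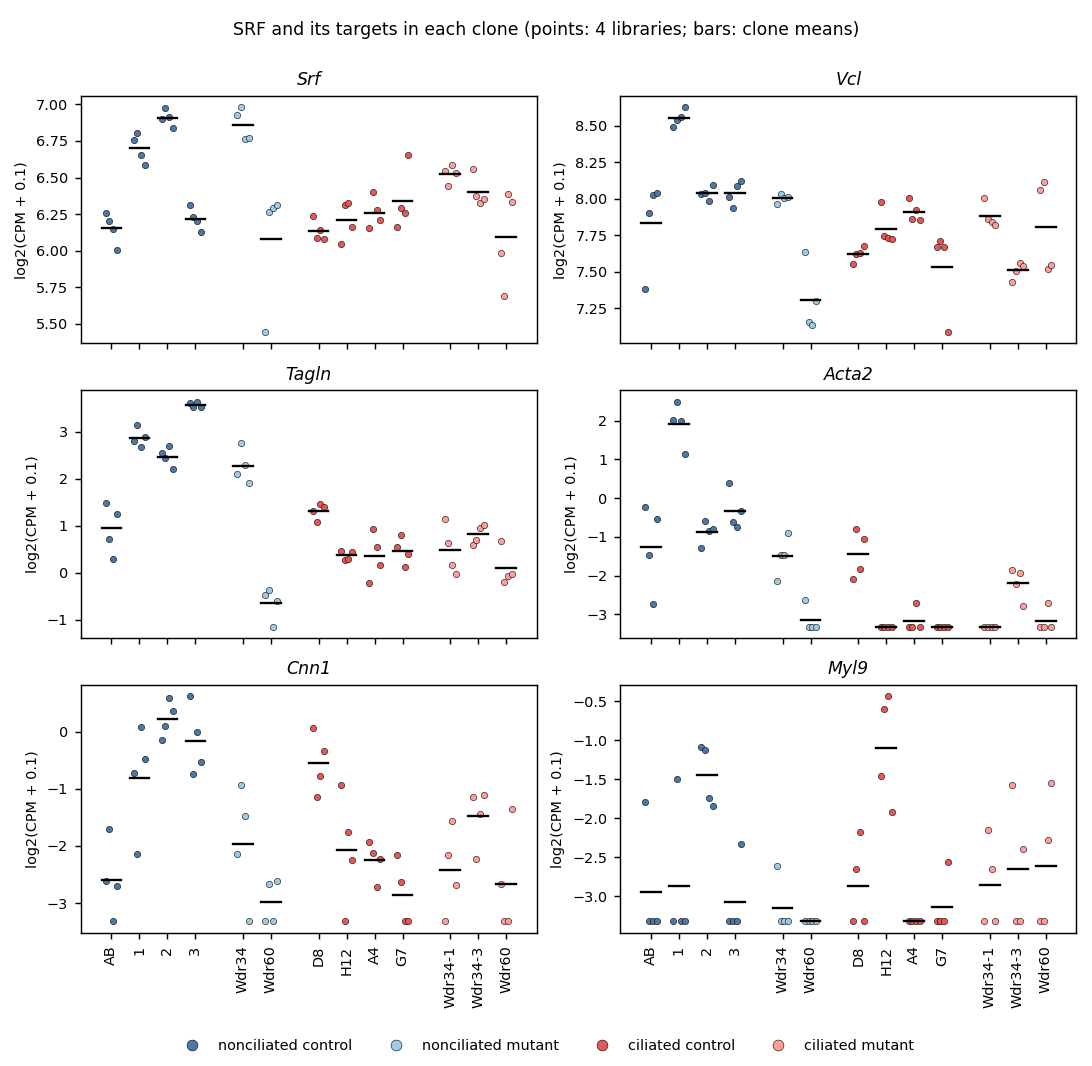
Level of *Srf* and 5 of its targets in each of the 13 clones, drawn as in the plot of the YAP targets, with log2(CPM + 0.1) on the vertical axis and a separate range in each panel. *Tagln* and *Acta2* are highest in non-ciliated control clones 3 and 1, and the points of *Acta2*, *Cnn1* and *Myl9* at about -3.3 are libraries with 0 reads.

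The first comparison was between the states, ciliated against non-ciliated control clones. Of the 10 members, 2 were called lower (*Cyr61* and *Tagln*) and 0 higher by edgeR's quasi-likelihood test at an adjusted p under 0.05, while 9.46% of all 13994 genes tested were called lower and 8.98% higher. By unadjusted p under 0.05 the members numbered 5, adding *Amotl2*, *Acta2* and *Vcl*, against 33.9% of all genes. DESeq2 called 4, adding *Amotl2* and *Acta2* to the pair, and called 18.7% of all genes, in either direction. The fitted difference was negative in 9 of 10, with a median log2 fold change of -1.03 against 0.02 over all genes. The clones did not overlap in 2 of 10 (*Cyr61* and *Acta2*, both lower in ciliated cells), against 11.4% of all genes lower without overlap. Of the YAP targets, *Cyr61* separated the states, while *Ctgf*, *Ankrd1* and *Amotl2* overlapped between them. In bulk RNA, fewer cells that express a gene and less RNA of it per cell cannot be told apart.

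**Figure D3:**
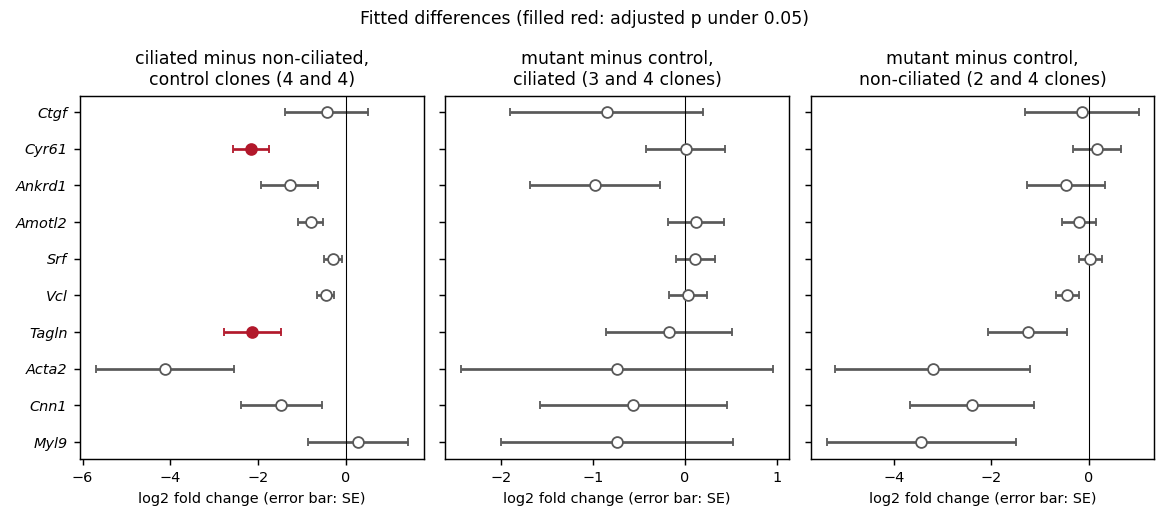
Fitted log2 fold change (points) and its SE (bars) of each member in the 3 comparisons, with the gene on the vertical axis and the log2 fold change on the horizontal axis, whose range differs between panels. Filled red points passed the test: *Cyr61* at -2.16 and *Tagln* at -2.13 in the comparison of states, and no gene in either comparison of mutants with controls.

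Mutant and control clones were compared within each state. In ciliated cells (3 against 4 clones), 0 of 10 members were called, as were 0% of all genes. The log2 fold changes ran from -0.98 (*Ankrd1*, SE 0.71) to 0.12 (*Amotl2*, SE 0.31), and the lowest unadjusted p among the members was 0.191. By unadjusted p under 0.05, edgeR counted 272 of 13994 genes and none of the members, and DESeq2 called 3 genes in all and no member. The negative values of *Ctgf* (-0.85, SE 1.05) and *Ankrd1* depended on single clones. Without control D8 they were 0.21 and 0.057, *Ctgf* was -1.44 without the mutant Wdr60, and *Ankrd1* was -1.35 without Wdr34-3. For *Cyr61* the means were 233 ± 54.3 CPM in mutants and 232 ± 97.6 in controls, and for *Srf* 82.2 ± 11.5 and 75.7 ± 4.8 (SD, n = 3 and 4 clones).

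In non-ciliated cells (2 against 4 clones), 0 of 10 members were called, again with 0% of all genes. By unadjusted p under 0.05, edgeR counted 516 genes and none of the members, and DESeq2 called 14 genes and no member. The mutant clones lay below all control clones in 2 of 10 members, against 6.52% of all genes: these were *Acta2* and *Myl9*, for which the mutants held 19 and 1 reads in all. The 4 largest negative values belonged to SRF targets: *Myl9* at -3.44 (SE 1.94), *Acta2* at -3.20 (SE 2.0), *Cnn1* at -2.39 (SE 1.27) and *Tagln* at -1.26 (SE 0.82), each with an adjusted p of 1. For *Tagln* the value rests on the Wdr60 clone: without it the log2 fold change was -0.41, and without the Wdr34 clone -3.56, each with 1 mutant clone left. With the 52 libraries entered as if they were independent samples, *Acta2*, *Tagln*, *Cnn1* and *Vcl* were called lower in non-ciliated mutants, and 10.5% of all genes were called in either direction. The libraries are technical replicates, so that test does not carry the spread between clones.

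Of the non-ciliated mutant clones, Wdr34 stood above Wdr60 in each member, although for *Myl9* this was 1 read against 0. Over all genes tested, Wdr34 stood above Wdr60 in 48.4%. The values were 1701 against 589 CPM for *Cyr61*, 1046 against 486 for *Ctgf*, 762 against 292 for *Ankrd1*, 533 against 335 for *Amotl2*, 116 against 69.5 for *Srf*, 256 against 160 for *Vcl* and 4.82 against 0.56 for *Tagln*. Each genotype is 1 clone in this state, so the difference has no replicate check. In ciliated cells the Wdr60 clone lay below both Wdr34 clones for *Srf* and *Tagln* and above both for *Ctgf* (590 CPM against 293 and 171). It lay between them for *Cyr61*, *Ankrd1*, *Amotl2* and *Vcl*, while *Acta2*, *Cnn1* and *Myl9* had too few reads to order these clones. The test of whether the mutant effect differs between states called 0 of 10 members, with 0% of all genes (136 genes at an unadjusted p under 0.05 and none by DESeq2). The lowest unadjusted p among the members was 0.16, for *Vcl*.

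How the members moved together was read over the clones of each state separately, as a description with 6 or 7 points that share their groups. In the 7 ciliated clones, *Ctgf* followed *Cyr61* (Pearson's r = 0.92, Spearman's rho 0.82) and ran opposite to *Amotl2* (r = -0.81, rho -0.93), although all 3 are YAP targets. *Cyr61* and *Amotl2* were likewise opposed (r = -0.80, rho -0.86). In the 6 non-ciliated clones, *Cyr61* instead rose with *Amotl2* (r = 0.88, rho 0.71) and with *Srf* (r = 0.93, rho 0.77), and only weakly with *Ctgf* (r = 0.29, rho 0.14). *Ctgf* there followed *Ankrd1* (r = 0.92, rho 0.83). Over all 45 pairs of members, 43 correlations were positive in non-ciliated cells (median r 0.61) and 23 in ciliated cells (median r 0.00), beside 49.97% and 49.96% of all pairs of genes. Without *Acta2*, *Cnn1* and *Myl9*, whose clone values rest on few reads, 21 of 21 and 10 of 21 pairs were positive. *Tagln* and *Cnn1* moved together in both states (r = 0.85 in non-ciliated and 0.90 in ciliated cells), as did *Tagln* and the YAP target *Ankrd1* (0.91 and 0.80). In ciliated cells these values lean on D8, the highest clone of *Tagln*, *Acta2*, *Cnn1* and *Ankrd1*, and the rank correlation of *Tagln* with *Ankrd1* was 0.36. *Vcl* went with *Tagln* in non-ciliated cells (r = 0.83, rho 0.94) and against it in ciliated cells (r = -0.56, rho -0.57). With *Acta2* the values were r = 0.96 (rho 0.94) and r = -0.53 (rho -0.30). *Acta2* has too few reads in ciliated clones for the latter to be read as a direction.

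**Figure D4:**
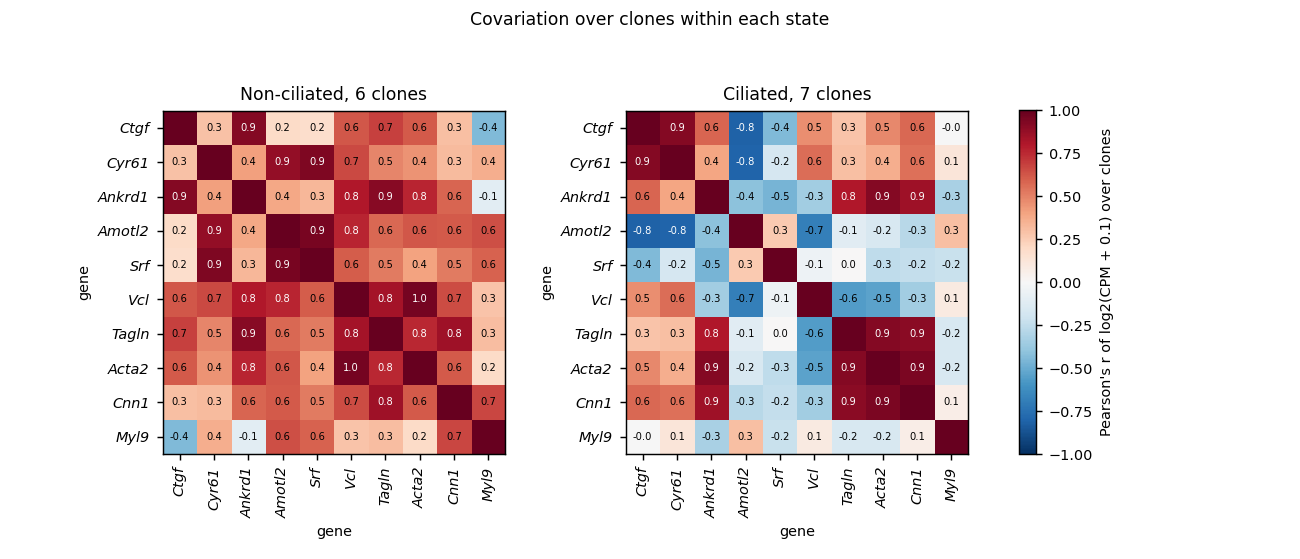
Pearson's r between each pair of members over the clone means of log2(CPM + 0.1), for 6 non-ciliated (left) and 7 ciliated clones (right), with genes on both axes and colour running from -1 (blue) to 1 (red). In non-ciliated cells 43 of 45 pairs are positive, and in ciliated cells *Amotl2* stands against *Ctgf* (-0.81) and *Cyr61* (-0.80).

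With the mean of each state taken off, the genes whose levels over the 13 clones were most like those of *Ctgf*, of 13993 others, included *Runx1* (r = 0.97), *Nrp1* (0.96), *Rasal2* (0.96) and *Rab30* (0.96). The transcription factor *Runx1* stood at 179 CPM in D8 and 6.2 in G7, the same 2 clones that bound the range of *Ctgf*. Among the members, *Cyr61* (r = 0.70) and *Ankrd1* (0.61) were nearest to *Ctgf*, at ranks 1059 and 1728. The genes most like *Tagln* included *Tia1* and *Mat2a* (each 0.88), *Lrtm2* (0.87) and *Rhno1* (0.86). *Cnn1* (0.82) and *Acta2* (0.76) followed at ranks 17 and 69.

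Wider lists of the same pathways gave the setting for the members in the comparison of states. Of 27 tested genes among 30 other MRTF-SRF targets, 6 were called lower in ciliated controls (22.2%, against 9.46% of all genes) and 0 higher, with a median log2 fold change of -0.44 against 0.02 over all genes. They included the actin crosslinker *Actn1* (-1.13, SE 0.25), beta-actin *Actb* (-1.03, SE 0.15), *Filip1l* (-0.99, SE 0.31) and tropomyosin *Tpm1* (-0.91, SE 0.20). *Actb* stood at 3804 CPM in non-ciliated and 1880.5 in ciliated controls, with the same uncertainty as *Acta2* about reads shared with near-copies. Of 22 tested genes among 25 other YAP-TEAD targets, 1 was called lower, *Birc5* (-0.44, SE 0.14), which encodes the mitotic protein survivin, and 2 higher, the growth factor *Tgfb1* (1.54, SE 0.19) and the phosphatase *Ptpn14* (0.68, SE 0.19), which restrains YAP. These are 4.55% lower and 9.09% higher, beside 9.46% and 8.98% of all genes, and the median of the list was -0.14.

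Of 21 genes of the Hippo pathway and TEAD factors, 2 were called higher and 2 lower (9.52% each), near the 8.98% and 9.46% of all genes. *Wwtr1*, which encodes TAZ, was called higher in ciliated controls (0.88, SE 0.17, 346 against 184 CPM), as was the scaffold *Wwc1* (0.59, SE 0.17). *Tead1* was called lower (-1.01, SE 0.20, 158 against 308 CPM), as was the Hippo kinase *Stk3* (-0.42, SE 0.13). *Yap1* itself stood at 172 against 186 CPM (-0.13, SE 0.11, adjusted p = 0.426). Of the 8 SRF cofactors tested, the ternary complex factors *Elk4* (0.91, SE 0.14) and *Elk1* (0.59, SE 0.18) and the MRTF inhibitor *Scai* (0.66, SE 0.19) were called higher (37.5%, beside 8.98% of all genes) and 0 lower. The MRTF genes, listed as *Mkl1* and *Mkl2*, stood at 83.1 against 79.5 and 94.3 against 87.8 CPM and were not called. Of 10 immediate early genes driven by SRF and ternary complex factors, only *Fos* was called (-2.67, SE 0.68, 15.3 against 97.5 CPM), which is 10% lower beside 9.46% of all genes. Of 10 proliferation genes, the cyclin-dependent kinase inhibitor *Cdkn1b* was higher (1.12, SE 0.29), and *Top2a* (-0.44, SE 0.13) and *Ccnb1* (-0.36, SE 0.11) were lower, or 10% higher and 20% lower. In the comparisons of mutants with controls and in their difference between states, 0 genes of these 6 lists were called by edgeR.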

How the data were processed

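Total RNA of 52 libraries was sequenced. Read pairs were mapped by the authors to the mouse genome (GRCm38) using the Rsubread package in R 3.4.4, and featureCounts assigned them to genes. The files deposited list, for each symbol, unnormalized counts. The authors tested them with DESeq2 1.18.1 (versions from the submitters' processing notes). The strand setting and the treatment of multi-mapping reads are not given in the sources used here.

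Here the 4 libraries of a clone, technical replicates in the methods, were summed, and the 13 sums were tested in R 4.3.3 with edgeR 4.0.16: filterByExpr (minimum count 10), TMM, 4 group means, glmQLFit and glmQLFTest (2-sided), Benjamini-Hochberg adjustment over all 13994 genes tested and calls at an adjusted p under 0.05. Nothing says that the clones came from separate experiments, so p-values measure the spread between these clones. CPM values are TMM-scaled, and their SD is over clone means. Exact 2-sided permutation tests over clones used log2(CPM + 0.1). They cannot go below 0.0286 for 4 against 4 or 3 against 4 clones, or 0.0667 for 2 against 4. The library pairs within clones were checked: 0 of 78 were identical, and all differed beyond sampling noise (chi-square per degree of freedom of at least 2.02).

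The members and lists were chosen with earlier results of these data known. Named genes were all 10 members, the called genes of each list (at most 5 in each direction) and the 5 genes most like *Ctgf* and *Tagln*. Some genes that this rule names are not reported here. The alternatives were RLE size factors, no filter, DESeq2 1.42.0, libraries as samples with and without the replicate number as a block, a log2 limit of 1, each state alone, and omission of single clones or of single replicate numbers. Leaving out 5 libraries that stand apart (SD of log2 differences from the clone median over 0.3, genes above 5 CPM) and leaving out G7 with clone 2 were added after seeing the data. On simulated counts for the comparison of states (13994 genes), the fit recovered 67 of 100 genes changed by 2 and 31 of 100 changed by 1 on the log2 scale, with 7 false calls. Only these genes were changed, while 18.4% of all genes were called in the data. The adjusted p limit is therefore stricter in the simulation, and these shares do not give recovery in the data. Recovery was not simulated for mutants against controls. Coordinates and promoters are from RefSeq (GRCm38.p6).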

Additional observations from a re-analysis of the deposited data

Results flagged for a closer look

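Among the 4 control clones of a state, 5 of 20 sets of member values held a clone that stood apart from the other 3. The measure was the gap to the nearest neighbour over the whole range, at Dixon's 95% limit. For normally distributed values, chance passes that limit in about 1 in 20 sets. Values that rest on few reads, such as those of *Acta2* and *Myl9*, need not follow that rate. Ciliated control D8 was the highest for *Tagln* (2.39 CPM against 1.19 to 1.30) and for *Acta2* (0.292 CPM against 0 to 0.0132). Non-ciliated control 1 was the highest for *Acta2* (3.85 CPM against 0.412 to 0.737). For *Myl9*, non-ciliated control 2 stood at 0.276 CPM and ciliated control H12 at 0.406, each the highest of its group.

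Among the 4 libraries of a clone, 15 of 130 sets held a library that stood apart. A set with reads in only 1 library always passes the limit, whatever the count, so passing carries no information there. Some of these libraries also stand apart for all genes: *Amotl2* in library 1 of non-ciliated control AB (316 CPM against 396 to 411), *Vcl* in library 4 of ciliated control G7 (136 CPM against 203 to 209), *Srf* and *Acta2* in library 1 of the non-ciliated Wdr60 clone (43.4 CPM against 76.7 to 79.4, and 0.0627 CPM against 0) and *Myl9* in library 4 of G7 (0.0701 CPM against 0) and library 1 of AB (0.189 CPM against 0). Other cases were *Ankrd1* in library 4 of D8 (822 CPM), *Amotl2* in library 3 of D8 (243 CPM), *Vcl* in library 1 of H12 (252 CPM) and, on 26 reads against 14 to 18, *Tagln* in library 1 of the ciliated Wdr60 clone (1.5 CPM). The remaining sets had reads in 1 library and 0 in the other 3: *Acta2* in the ciliated Wdr60 clone (0.0530 CPM) and in A4 (0.0527 CPM), and *Myl9* in the non-ciliated clones Wdr34 (0.0635 CPM), 1 (0.253 CPM) and 3 (0.0983 CPM).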

How the results depend on the processing

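Members called between the states numbered 2, all lower in ciliated controls, with 18.4% of all genes called in either direction. They numbered 1 with no filter (11.1%) and without the libraries that stand apart (15.6%). Without G7 and clone 2, the controls low in adhesion genes and keratins, they also numbered 1 (20.8%). DESeq2 called 4 (18.7% of all genes), and the 52 libraries as samples called 8, with or without the replicate block (60.8% and 61.9% of all genes). Leaving out a clone or replicate number gave 1 to 4: 4 without D8 (17.3% of all genes), and 1 (*Cyr61*) without H12 (12.2%), A4 (13.2%), clone 1 (8.44%), clone 3 (10.8%) or replicate 1 (17.4%). In mutants against controls in non-ciliated cells, the libraries as samples called 4 members with or without the replicate block (9.1% and 10.5% of all genes). All other settings, and every setting in ciliated mutants and in the difference between states, called 0. Same-numbered libraries did not deviate together (median correlation of deviations -0.001), so the block pairs by number only. Some directions reversed. In ciliated mutants, *Cyr61* was 0.01, and -0.00029 with the replicate block and -0.24 without G7 and clone 2. *Vcl* was 0.036 there, and -0.035 without G7 and clone 2 and -0.041 without the libraries that stand apart. Leave-outs reversed the following ranges: in ciliated mutants *Ctgf* -1.44 to 0.21, *Cyr61* -0.24 to 0.24, *Ankrd1* -1.35 to 0.057, *Amotl2* -0.095 to 0.34, *Acta2* -3.16 to 2.91, *Tagln* -0.37 to 0.14, *Cnn1* -1.25 to 0.51 and *Vcl* -0.043 to 0.14; in non-ciliated mutants *Ctgf* -0.81 to 0.31, *Cyr61* -0.80 to 0.74, *Ankrd1* -1.33 to 0.073, *Amotl2* -0.59 to 0.091 and *Srf* -0.39 to 0.36; between states *Myl9* -0.28 to 0.68. With 1 mutant clone left, its spread is assumed to equal that of the other groups. The causes were not tested. Depth limits *Acta2*, *Cnn1* and *Myl9*, which had 0 reads in 21, 10 and 31 of 52 libraries, and to a lesser degree *Tagln*, with 37 to 891 reads per clone.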
